A study of Rattus norvegicus with 9 samples.

Results

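Families of developmental transcription factors were followed in rat microvascular smooth muscle cells with and without growth factor. The members were taken by name: every row of the expression table whose symbol, ignoring case, reads HOX A to D, TBX, MEIS, PBX, GATA, FOX, SOX, PRRX, TWIST, MSX or the SIX-family stem and then a number, without Sox9. This gave 141 of 26401 rows (129 distinct symbols), and 53 of them averaged 1 FPKM or more across all 9 libraries, against 11376 genes in the whole table. FPKM counts fragments relative to transcript length and library size. The reported members were 17 FOX, 10 HOX, 4 GATA, 4 PBX, 4 TBX, 3 MEIS, 3 SIX-family, 3 SOX, 2 PRRX, 2 TWIST and 1 MSX genes. The other 88 rows lay under 1 FPKM, and 42 of these were listed at 0 in every library. Pbx4, at a mean of 1.12 FPKM, was the reported member nearest the limit, and 10 members lay just under it, between 0.5 and 1 FPKM (Foxl1, Hoxa9, Hoxb5, Foxd2, Hoxd4, Tbx3, Tbx19, Sox11, Six2 and Sox6).

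The cells were S31, wild-type primary vascular smooth muscle cells that came from heart microvessels of male Wistar Kyoto rats. All groups were first kept without serum for 48 h, in DMEM with lactalbumin hydrolysate. The control (columns LH-NS, 3 libraries) then received the same medium with no growth factor and was harvested at 24 h. The columns IGF-NS (3 libraries) belong to sample records that name recombinant rat PDGF-BB at 25 ng/ml and a harvest at 48 h, whereas the columns PDGF-NS (3 libraries) belong to records that name recombinant human IGF-1 at 25 ng/ml and a harvest at 24 h. Because the column names and the records contradict each other, both treated sets are called by their columns and no growth factor is assigned to either. The harvest times come from the same records, so which set was taken at 48 h is as uncertain as its growth factor. Growth factor and time cannot be told apart in that set, for which no control at 48 h was used here. The series' title asks whether such cells change phenotype differently under the different growth factors, and the comparisons below ask it of these families. No source used here says whether a group's libraries are separate cultures. The p-values therefore refer to the spread among these 9 samples only, and that spread may be technical.

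These families share the work of laying down tissue identity in the embryo, and many stay active in adult cells. HOX genes lie in 4 clusters and record position along the body axis. PBX and MEIS proteins are homeodomain cofactors that bind DNA together with HOX proteins and alter which sites they choose. PRRX, TWIST, SIX-family, MSX and TBX proteins mark mesenchyme, limb, muscle and heart progenitors, and TBX18 marks mural cells, the smooth muscle cells and pericytes of vessel walls. GATA4 and GATA6 act in heart and smooth muscle, where GATA6 is linked to the differentiated, quiescent state. Among forkhead proteins, the FOXO subgroup is held out of the nucleus when AKT phosphorylates it, a step downstream of both IGF-1 and PDGF receptors, and FOXM1 drives genes of the G2 and M phases of the cell cycle.

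Libraries summed to 616765 to 748000 FPKM, with 11047 to 11348 genes at 1 FPKM or more. Reads per library are not given. Steps in the low FPKM values place depth at 0.66 to 1.335 times that of control library 1. The shallowest were control libraries 2 and 3 and IGF-NS library 2. How many reads stand behind each value is therefore not known. Smooth muscle identity was checked with 10 markers, all detected, whose summed level was 2330.0 to 3330.0 FPKM in control, 513.0 to 540.0 for IGF-NS, then 293.0 to 359.0 for PDGF-NS (Acta2 was not analysed here). Of the 9 that averaged 1 FPKM or more, 0 were higher and 6 lower in IGF-NS against control (limma, adjusted p under 0.05; all genes: 17.4% and 7.48%). In PDGF-NS 1 was higher and 7 lower (all genes: 20.7% and 10.2%). Endothelial markers (10 genes) summed to 10.8 to 11.1 FPKM in control, 4.14 to 6.55 for IGF-NS and 5.92 to 9.38 for PDGF-NS, mostly from Erg and EGFL7, with Cdh5, Kdr, Emcn and Cldn5 at 0 throughout. Erg fell in IGF-NS (7.98 to 2.96 FPKM, adjusted p = 0.0091). Fibroblast markers (10 genes, Tcf21 at 0) summed to 3490.0 to 4970.0 FPKM in control, 6520.0 to 7820.0 for IGF-NS, then 3400.0 to 4420.0 for PDGF-NS. Col1a1, the largest part of that sum in every library, passed in neither set, while 5 of the 8 fibroblast markers tested were higher and 0 lower in each treated set (median log2 fold change 0.99 and 1.03), such as Lum, at 340, 1795 and 1064 FPKM, and Pdgfra, at 11.5, 21.5 and 27.9. Cardiomyocyte markers (10 genes) summed to 514.0 to 865.0, 53.5 to 111.0 and 49.4 to 97.3 FPKM, with Pln the largest part in every library (33.9 of 53.5 FPKM in IGF-NS library 1), Tnnt2 next and Myh6, Myh7 and Myl2 at 0. Of 9 leukocyte markers Ptprc, Aif1, C1qa and C1qb were at 0, whereas the sums of 17.8 to 27.0, 23.0 to 31.2 and 43.9 to 89.5 FPKM were mostly Cd14. Of 8 pericyte markers Rgs5 and Higd1b were at 0, and the sums were 169.0 to 229.0, 145.0 to 161.0 and 167.0 to 195.0 FPKM. Within that list Mcam (60.6 to 9.33 FPKM) and Notch3 (63.5 to 16.3) fell and ABCC9 (54.0 to 138.8) rose in PDGF-NS, and Mcam (17.2) fell in IGF-NS. Mesothelial markers (6 genes, 3 of them tested) summed to 81.2 to 284.0 FPKM in control, 57.6 to 300.0 for IGF-NS and 74.6 to 152.0 for PDGF-NS. That sum varied widely among the libraries of a group, and 0 of the 3 tested passed in any comparison. Where these lists differ between groups, their part in the changes described here was not tested. In bulk RNA, fewer cells of a type and less RNA per cell cannot be told apart.

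Members were tested with limma on log2(FPKM + 1) with Benjamini-Hochberg adjustment over all 11376 genes, and a gene is said to have risen or fallen when its adjusted p was under 0.05. Levels are mean FPKM ± SD of 3 libraries, log2 fold changes carry their SE, and a value given as -fold divides one mean FPKM by the other. The log2(FPKM + 1) scale understates changes of low genes. In IGF-NS against control 13 members rose, where 17.4% of all genes did, and 6 fell, where 7.48% of all genes did. These 19 were 35.8% of the 53 members, against 24.9% called over all genes. In PDGF-NS against control 8 members rose (all genes: 20.7%) and 9 fell (all genes: 10.2%), together 32.1% of members against 31.0% of all genes, so that share lay near the background in this scaling. Under median ratio scaling, the common sum and quantile normalization (described at the end) 25, 23 and 24 of the 53 members passed there, against 3446, 3376 and 3444 of the 11376 genes. Set directly against each other, PDGF-NS was higher than IGF-NS in 3 members (all genes: 8.33%) and lower in 12 (all genes: 7.55%), or 28.3% of members against 15.9% of all genes. The median log2 fold change of the members was 0.18 in IGF-NS (all genes 0.15), -0.22 in PDGF-NS (all genes 0.13) and -0.19 between the sets (all genes -0.02).

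The 29 members that passed in at least 1 comparison fell into a few patterns. The same patterns were not counted over all genes, so they describe these members only and are not read as a trait of the families. Hoxb7, Meis2, Prrx1 and Six4 were among those that rose in both treated sets, whereas Foxa2, Foxs1, Hoxd13 and Twist2 fell in both, and 0 members moved in opposite directions. Prrx2, Meis1, Foxk1, Foxo1 and Tbx18 rose in IGF-NS alone against control and were lower in PDGF-NS than in IGF-NS. Gata6, Foxp1 and Foxp2 fell, and Sox5 and Tbx2 rose, in PDGF-NS alone against control, and these also differed between the sets. Both comparisons against control use the same 3 control libraries. The remaining 24 members passed in none of the 3 comparisons.

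**Figure D1:**
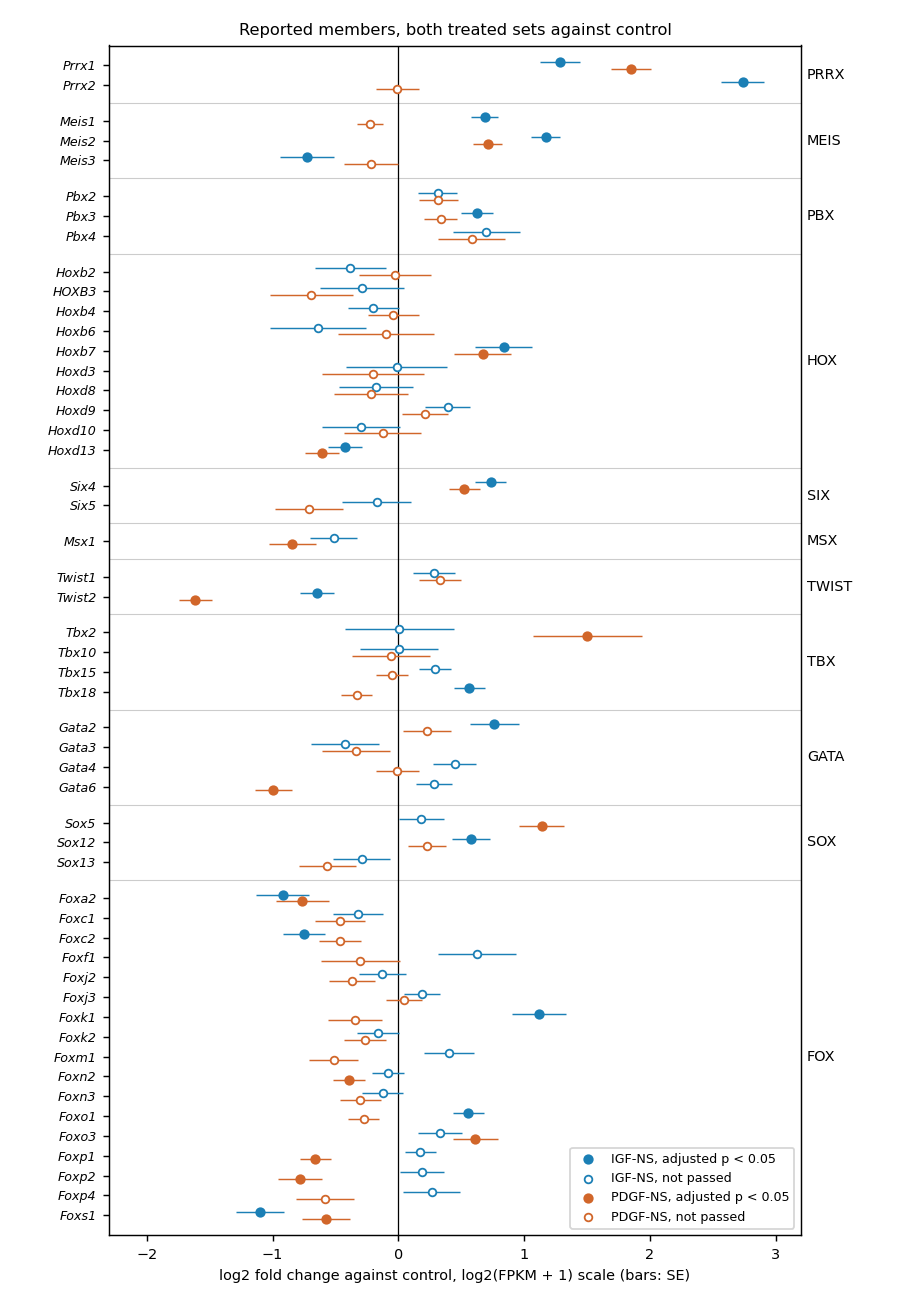
Log2 fold change against control on the log2(FPKM + 1) scale for the reported members, grouped by family, with bars for the SE and filled points for adjusted p under 0.05 (limma). Prrx2 lies farthest to the right in IGF-NS (2.74) and at -0.01 in PDGF-NS, and Twist2 lies farthest to the left in PDGF-NS (-1.61).

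Promoter sequence is shown for one gene of each main pattern, with both PRRX paralogs, since these members respond most differently. RefSeq windows on build GRCr8 matched 33 of the 53 members by symbol, and the 250 bases upstream of each start were searched on both strands. The forkhead motif was read as TGTTTAC (held by 3.21% of all 33469 windows) or as TGTTTGC (held by 4.16%), and the cell cycle homology region as TTTGAA (16.2% of windows) or as TTCGAA (1.4%). The CCAAT box was read by its name (34.0%), the joint HOX and PBX motif as TGATTTAT (0.831% of windows) or as TGATTGAT (0.69%), and the MEIS motif as TGACAG (15.8% of windows). The GATA motif was AGATAA (10.3% of windows), the SOX motif AACAAT (10.3% of windows), the T-box motif GGTGTGA (3.22% of windows) and the TWIST E-box CATATG (3.63% of windows) or CAGATG (14.0% of windows). No printed match overlaps another. Capitals mark the matches, a reverse-strand match appears as its reverse complement, and each run reads 5' to 3' along the gene's strand up to the base before the start. The windows lie at chr13:78204074-78204323 on the minus strand (Prrx1), chr3:34530081-34530330 on the plus strand (Prrx2), chr14:97495084-97495333 on the minus strand (Meis1), chr18:2460659-2460908 on the plus strand (Gata6) and chr9:99821992-99822241 on the plus strand (Twist2).
Prrx1: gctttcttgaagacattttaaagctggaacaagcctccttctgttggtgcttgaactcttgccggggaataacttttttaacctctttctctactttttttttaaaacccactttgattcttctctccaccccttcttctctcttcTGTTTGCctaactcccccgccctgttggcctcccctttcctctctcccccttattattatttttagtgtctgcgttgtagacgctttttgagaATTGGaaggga
Prrx2: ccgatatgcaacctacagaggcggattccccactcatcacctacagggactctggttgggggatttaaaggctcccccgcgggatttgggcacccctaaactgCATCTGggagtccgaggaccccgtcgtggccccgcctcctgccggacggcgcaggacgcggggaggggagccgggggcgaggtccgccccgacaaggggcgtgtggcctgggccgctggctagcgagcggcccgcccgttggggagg
Meis1: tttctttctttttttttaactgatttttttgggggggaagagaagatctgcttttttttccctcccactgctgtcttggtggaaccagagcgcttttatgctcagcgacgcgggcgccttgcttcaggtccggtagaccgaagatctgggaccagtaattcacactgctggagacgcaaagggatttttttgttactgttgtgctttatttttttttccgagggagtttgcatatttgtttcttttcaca
Gata6: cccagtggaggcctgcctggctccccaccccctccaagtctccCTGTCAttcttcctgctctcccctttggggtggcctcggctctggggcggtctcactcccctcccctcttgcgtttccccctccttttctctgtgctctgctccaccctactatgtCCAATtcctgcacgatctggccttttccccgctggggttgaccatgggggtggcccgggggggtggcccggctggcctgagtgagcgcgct
Twist2: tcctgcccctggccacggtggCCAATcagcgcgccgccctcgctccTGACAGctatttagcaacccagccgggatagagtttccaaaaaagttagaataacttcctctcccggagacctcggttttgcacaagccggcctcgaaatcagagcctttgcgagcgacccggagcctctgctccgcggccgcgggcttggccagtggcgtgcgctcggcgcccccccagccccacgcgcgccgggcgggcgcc

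The paralogs Prrx1 and Prrx2 differed in these windows. That of Prrx1 had 43.2% GC with 4 CpG, a forkhead match at -104 to -98 and a reverse CCAAT box at -11 to -7. That of Prrx2 had 70.0% GC with 23 CpG and a reverse TWIST E-box match at -147 to -142. Meis1 held no match, Gata6 held a reverse MEIS match at -207 to -202 and a CCAAT box at -91 to -87, and Twist2 held a CCAAT box at -229 to -225 and a MEIS match at -204 to -199. Over the 33 members the CCAAT box stood in 14 (42.4%, against 34.0% of all windows) and the MEIS motif in 3 (9.09%, against 15.8%), and 13 members held none of the 13 motifs. The median GC content of the members' windows was 67.6%, against 51.2% over all windows. These matches are descriptions of letters, and a window without one says nothing about the factor.

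The PRRX pair, paired-related homeodomain proteins of embryonic mesenchyme, held the largest log2 fold change of the 53 members in each treated set. Summed, the pair stood at 110.6 ± 5.76 FPKM in control, 351 ± 50.1 in IGF-NS and 359 ± 51.9 in PDGF-NS, and the paralogs took different parts in the 2 treated sums. Prrx1 (ENSRNOG00000003720) was at 92.2, 98.2 and 90.9 FPKM in the control libraries, at 200.5, 214 and 283 in IGF-NS and at 288, 353 and 385 in PDGF-NS. All treated libraries lay above all controls, and the lowest PDGF-NS library lay just above the highest IGF-NS library. Prrx1 rose by 1.29 ± 0.16 in IGF-NS (adjusted p = 0.0005) and by 1.85 ± 0.16 in PDGF-NS (adjusted p = 2.9e-05, limma). The difference between the sets, 0.56 ± 0.16 with adjusted p = 0.039, was less firm. It lost the call without control library 2 (0.059) or 3 (0.054), IGF-NS library 1 (0.14) or 2 (0.11), or PDGF-NS library 2 (0.11) or 3 (0.15), and Prrx1 was not called there after rescaling to one common sum (0.058).

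Prrx2 (ENSRNOG00000006299) was at 16.6, 18.9 and 15.1 FPKM in control, at 137, 95.9 and 124 in IGF-NS and at 15.0, 15.1 and 20.3 in PDGF-NS. The IGF-NS libraries stood far above both other groups, which overlapped each other. It rose 7.06-fold in IGF-NS (2.74 ± 0.17, adjusted p = 1.4e-05), did not pass in PDGF-NS (-0.01 ± 0.17, adjusted p = 0.97) and was lower in PDGF-NS than in IGF-NS by 7.07-fold (-2.75 ± 0.17, adjusted p = 1.1e-05). Within a library Prrx2 made up 15.2 ± 0.94% of the pair's FPKM in control, 34.0 ± 5.8% in IGF-NS and 4.69 ± 0.50% in PDGF-NS. These shares are unchanged by median ratio scaling and the common sum, which multiply a library by one factor. Quantile normalization can change them, and shares under it were not computed. The 3 groups did not overlap in them as computed from the deposited FPKM. Each pair of groups gave an exact two-sided permutation p of 0.1, the smallest that 3 against 3 libraries allow.

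**Figure D2:**
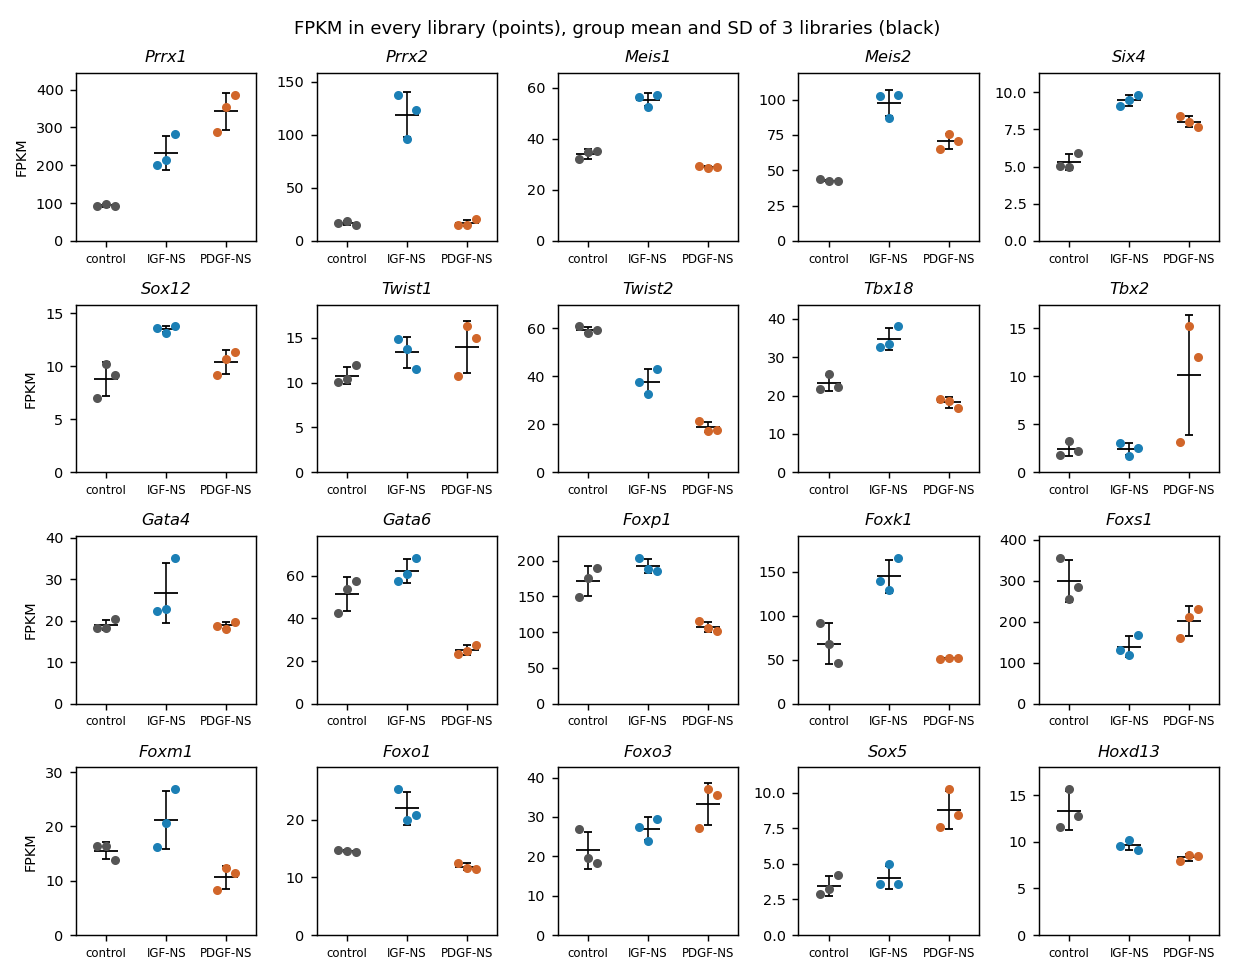
FPKM of 20 members in each of the 9 libraries (points) by group, with the group mean and SD of 3 libraries in black and every axis starting at 0. Prrx2 is high in IGF-NS only (95.9 to 137 FPKM), Twist2 steps down from control to PDGF-NS, and the 3 PDGF-NS libraries of Tbx2 are far apart (3.11 to 15.2 FPKM).

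Meis1 and Meis2, TALE homeodomain cofactors of HOX proteins, both rose in IGF-NS, whereas Meis3 fell. Meis1 was at 31.9, 34.9 and 35.4 FPKM in control, at 56.6, 52.3 and 57.2 in IGF-NS and at 29.4, 28.5 and 28.9 in PDGF-NS. The groups did not overlap, with IGF-NS at the top and PDGF-NS at the bottom. Meis1 rose in IGF-NS (0.69 ± 0.11, adjusted p = 0.0016) and was lower in PDGF-NS than in IGF-NS (-0.91 ± 0.11, adjusted p = 0.00033). Its value in PDGF-NS against control, -0.23 ± 0.11, did not pass (adjusted p = 0.13), although it passed as lower under all 3 other scalings of the libraries.

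Meis2 was at 43.5, 42.2 and 42.3 FPKM in control, at 102.8, 86.9 and 103.2 in IGF-NS and at 65.4, 75.9 and 70.5 in PDGF-NS. PDGF-NS lay between the other groups with no overlap. Meis2 rose in both sets (1.17 ± 0.12, adjusted p = 0.00014, and 0.71 ± 0.12, adjusted p = 0.0013). The difference between them (-0.46 ± 0.12, adjusted p = 0.024) was not called without IGF-NS library 1 (0.092) or 3 (0.06) or without PDGF-NS library 1 (0.077) or 3 (0.084). Meis2 made up 55.6 ± 1.8% of the FPKM of Meis1 and Meis2 in control, 63.8 ± 1.2% in IGF-NS and 70.9 ± 1.9% in PDGF-NS, with no overlap between any groups (exact permutation p = 0.1 each).

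Meis3 was a minor paralog at 4.42, 2.53 and 2.81 FPKM in control, at 1.46, 1.10 and 2.10 in IGF-NS and at 2.83, 2.31 and 2.65 in PDGF-NS. The IGF-NS libraries lay below all controls, and PDGF-NS overlapped the controls. Meis3 fell in IGF-NS (-0.73 ± 0.21, adjusted p = 0.033). That call was lost without control library 1 (0.095) or 3 (0.053), IGF-NS library 1 (0.091) or 2 (0.1), or PDGF-NS library 3 (0.052).

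The PBX genes encode the other arm of these cofactor complexes, and only Pbx3 among the 4 passed a test. Pbx3 was at 39.1, 49.0 and 48.3 FPKM in control, at 63.9, 75.6 and 71.8 in IGF-NS and at 61.0, 54.7 and 56.5 in PDGF-NS. All treated libraries lay above the controls. Pbx3 rose in IGF-NS (0.62 ± 0.13, adjusted p = 0.007), while in PDGF-NS its 0.34 ± 0.13 had adjusted p = 0.072. Pbx2 (14.8, 18.4 and 18.5 FPKM in control, IGF-NS and PDGF-NS) did not pass, and Pbx4, listed at 0 in control library 2 and at 0.825 and 0.920 FPKM in the other controls, stood at 0.982 to 1.76 FPKM in the treated libraries and did not pass either.

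HOX expression was limited to the B and D clusters at this filter. Of 20 HOXA and 9 HOXC rows 0 reached a mean of 1 FPKM, and their summed levels in control were 1.36 ± 0.13 and 0.410 ± 0.37 FPKM. From the B cluster Hoxb2, HOXB3, Hoxb4, Hoxb6 and Hoxb7 were reported (cluster sum 15.6 ± 5.9 FPKM in control, 13.5 ± 3.6 in IGF-NS, 13.9 ± 1.6 in PDGF-NS). From the D cluster Hoxd3, Hoxd8, Hoxd9, Hoxd10 and Hoxd13 were reported (40.8 ± 2.4, 37.4 ± 0.17 and 34.2 ± 6.3 FPKM). The most abundant were Hoxd8 (15.2 ± 2.9 FPKM in control) and Hoxd13, the most distal gene of its cluster in position and use. HOX clusters carry antisense transcripts, and whether the authors' counting used strand is not given in the sources used here, so reads of both strands may be mixed.

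**Figure D3:**
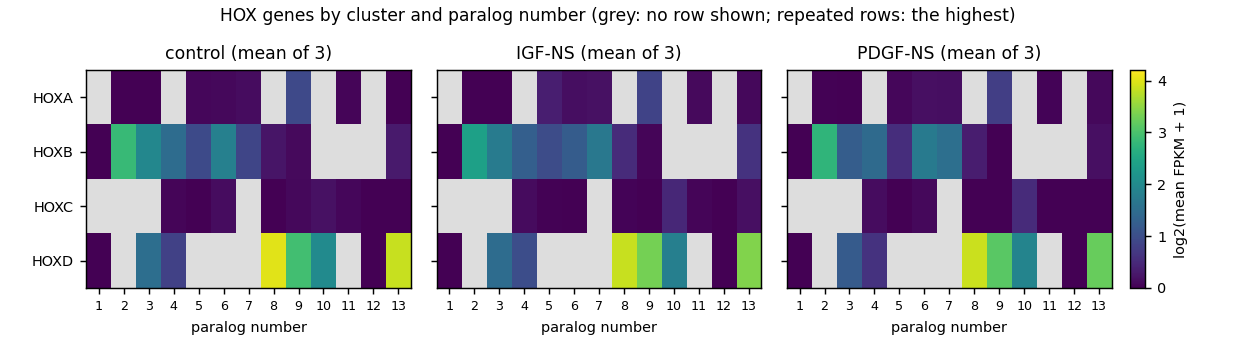
Mean level of each HOX gene in each group, as log2(mean FPKM + 1), by cluster (rows) and paralog number (columns), with grey where no row is shown. Signal stands in the middle and front of HOXB and in 3, 8, 9, 10 and 13 of HOXD, and this layout is alike in the 3 groups.

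Among the 10 HOX genes 1 rose and 1 fell in each treated set (limma; all genes: 17.4% and 7.48% in IGF-NS, 20.7% and 10.2% in PDGF-NS). Between the sets 0 of 10 differed (all genes: 15.9%), and 0 of 10 had unadjusted p under 0.05 (all genes: 3358 of 11376). With 10 genes, these counts are not read as a trait of the HOX family. Hoxd13 was at 11.6, 15.7 and 12.8 FPKM in control, at 9.56, 10.2 and 9.16 in IGF-NS and at 7.94, 8.64 and 8.44 in PDGF-NS. Every treated library lay below every control. It fell in PDGF-NS (-0.61 ± 0.14, adjusted p = 0.0071). In IGF-NS its -0.42 ± 0.14 had adjusted p = 0.045, and the call was lost without any one of control libraries 2 (0.15) and 3 (0.081), IGF-NS libraries 1 (0.12), 2 (0.074) and 3 (0.088) or PDGF-NS libraries 1 (0.06), 2 (0.069) and 3 (0.073).

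Hoxb7 was low, at 1.41, 0.693 and 0.444 FPKM in control, at 2.23, 2.22 and 2.22 in IGF-NS and at 2.57, 1.58 and 1.59 in PDGF-NS. Its control mean was 0.848 FPKM, so Hoxb7 reached the 1 FPKM filter only through the treated libraries. All treated libraries lay above the controls. Its rise in IGF-NS (0.84 ± 0.23, adjusted p = 0.023) was lost without control library 2 (0.065) or 3 (0.074) or IGF-NS library 1 (0.068) or 2 (0.058) and under quantile normalization (0.074). Its rise in PDGF-NS (0.67 ± 0.23, adjusted p = 0.046) passed without control library 1 and was lost without each of the other 8 libraries (control 2 and 3, 0.11 and 0.14; IGF-NS 1, 2 and 3, 0.066, 0.058 and 0.056; PDGF-NS 1, 2 and 3, 0.14, 0.067 and 0.076). Under all 3 other scalings the PDGF-NS call ended too. The other HOX genes had log2 fold changes between -0.64 (Hoxb6) and 0.39 (Hoxd9) in IGF-NS and between -0.69 (HOXB3) and 0.21 (Hoxd9) in PDGF-NS. Means in control, IGF-NS and PDGF-NS were 6.11, 4.21 and 5.73 FPKM for Hoxb2, 1.79, 1.42 and 1.74 for Hoxb4, 1.88, 1.81 and 1.31 for Hoxd3, and 3.05, 2.53 and 2.72 for Hoxd10.

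The TALE partner list, further TALE homeodomain genes and a PBX-binding protein, had 8 of 12 genes tested, with medians of 0.06 and -0.10 against control (all genes 0.15 and 0.13). In IGF-NS 1 rose and 1 fell (all genes: 17.4% and 7.48%), and in PDGF-NS 1 rose and 0 fell (all genes: 20.7% and 10.2%). Between the sets 1 was higher and 1 lower (all genes: 8.33% and 7.55%). Pknox2, a close relative of the MEIS proteins, rose in IGF-NS from 0.433 to 2.26 FPKM (1.22 ± 0.23, adjusted p = 0.0044) and was lower in PDGF-NS than in IGF-NS (adjusted p = 0.025, lost without IGF-NS library 1, 0.08, or 2, 0.071, or PDGF-NS library 1, 0.077, or 3, 0.065). With 0.773 FPKM in PDGF-NS, Pknox2 reached the 1 FPKM filter only through its IGF-NS libraries. Tgif1, a TALE repressor of TGF-beta responses, rose in PDGF-NS (83.6 to 156 FPKM, 0.88 ± 0.13, adjusted p = 0.0009). Pbxip1, which binds PBX proteins and blocks their complex with HOX proteins, fell in IGF-NS (-0.67, adjusted p = 0.028), a call lost without control library 1 (0.075) or 2 (0.072) or IGF-NS library 1 (0.057) or 2 (0.093).

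Six4 is a homeodomain gene of muscle progenitors, and SIX-family proteins work with EYA coactivators. Six4 was at 5.03, 4.96 and 5.90 FPKM in control, at 9.06, 9.52 and 9.82 in IGF-NS and at 8.41, 8.00 and 7.68 in PDGF-NS. All treated libraries lay above all controls. Six4 rose by 0.74 ± 0.12 in IGF-NS (adjusted p = 0.0026) and by 0.52 ± 0.12 in PDGF-NS (adjusted p = 0.0097, or 0.055 after quantile normalization). It did not pass between the sets (-0.21, adjusted p = 0.29). Six5 (26.9 ± 10.2 FPKM in control, 23.5 ± 8.0 in IGF-NS, 15.4 ± 1.8 in PDGF-NS) did not pass, with -0.71 in PDGF-NS at adjusted p = 0.073, and passed as lower there under the 3 other scalings.

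The list of SIX-family partners (EYA, DACH and SKI genes) had 5 of 8 genes tested, with medians of -0.21 and -0.36 against control (all genes 0.15 and 0.13). In each set 0 rose (all genes: 17.4% and 20.7%) and 1 fell (all genes: 7.48% and 10.2%). That gene was Dach1, a corepressor that SIX-family proteins recruit, at 3.09 FPKM in control, 0.419 in IGF-NS and 0.368 in PDGF-NS (-1.53 ± 0.31, adjusted p = 0.0063, and -1.60 ± 0.31, adjusted p = 0.0034). Dach1 reached the 1 FPKM filter only through its control libraries, so its fall is described only and the list's count rests on it. Eya1, a coactivator of SIX-family proteins, was lower in PDGF-NS than in IGF-NS (8.95 against 4.97 FPKM, -0.73, adjusted p = 0.015), a call lost without IGF-NS library 1 (0.063) or PDGF-NS library 1 (0.052) or 2 (0.053). Under median ratio scaling and quantile normalization the list gave 2 genes lower in IGF-NS (all genes: 1229 and 1171 of 11376). Under all 3 other scalings it gave 3 lower in PDGF-NS (all genes: 1678 to 1752).

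Msx1, a homeodomain repressor that keeps mesenchymal progenitors from differentiating, was the 1 MSX gene reported. It was at 11.2, 7.28 and 9.38 FPKM in control, at 5.80, 6.26 and 6.30 in IGF-NS and at 3.53, 5.09 and 5.61 in PDGF-NS. The 3 groups did not overlap, and PDGF-NS was lowest. Msx1 fell in PDGF-NS (-0.84 ± 0.19, adjusted p = 0.0071), and in IGF-NS its -0.52 ± 0.19 had adjusted p = 0.07 and passed under median ratio scaling (0.029) and quantile normalization (0.025).

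Twist1 and Twist2 are basic helix-loop-helix factors of mesenchyme, and only the second passed. Twist2 was at 60.7, 58.1 and 59.0 FPKM in control, at 37.5, 32.7 and 43.1 in IGF-NS and at 21.3, 17.4 and 17.7 in PDGF-NS. The groups were well apart, with PDGF-NS lowest. It fell by 0.65 on the log2 scale in IGF-NS (SE 0.13, adjusted p = 0.0072) and by 1.61 in PDGF-NS (SE 0.13, adjusted p = 2.4e-05), and the sets differed (-0.97 ± 0.13, adjusted p = 0.00093). Twist1 was at 10.1, 10.4 and 11.9 FPKM in control, at 14.8, 13.8 and 11.5 in IGF-NS and at 10.7, 16.2 and 15.0 in PDGF-NS. Its groups overlapped (0.28 ± 0.17, adjusted p = 0.25, and 0.33 ± 0.17, adjusted p = 0.16). Twist2 thus made up 84.6 ± 1.3% of the pair in control, 73.7 ± 4.6% in IGF-NS and 57.4 ± 8.0% in PDGF-NS, with no overlap between groups (exact permutation p = 0.1 each).

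**Figure D4:**
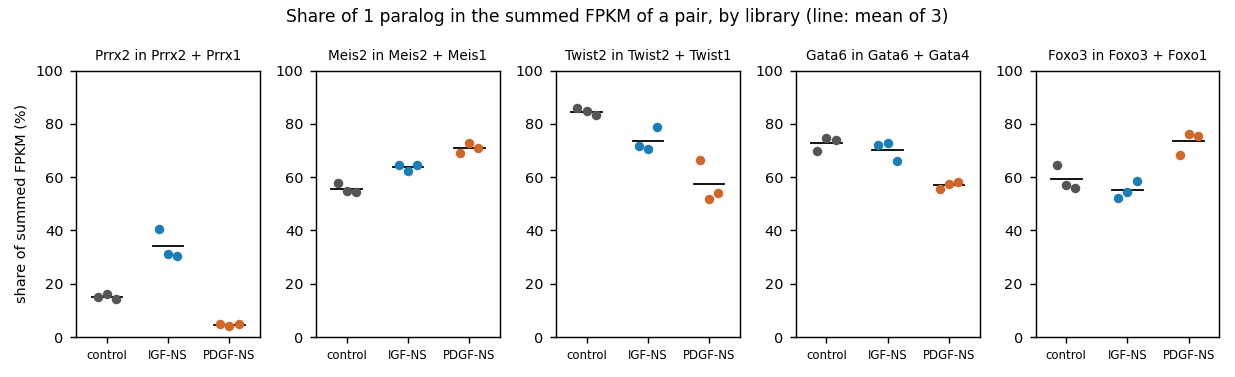
Share of 1 paralog in the summed FPKM of its pair, in percent, for each library (points) with the mean of 3 libraries (line). Prrx2 and Twist2 move in opposite directions in IGF-NS, and both have their lowest shares in PDGF-NS (4.69% and 57.4%).

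The list of TWIST partners and inhibitors (E proteins, ID proteins and related regulators of mesenchyme) had 12 of 14 genes tested, with medians of 0.19 and 0.05 against control (all genes 0.15 and 0.13). In IGF-NS 3 rose and 2 fell (all genes: 17.4% and 7.48%), and in PDGF-NS 4 rose and 2 fell (all genes: 20.7% and 10.2%). Between the sets 2 were higher and 2 lower in PDGF-NS (all genes: 8.33% and 7.55%). Snai2, a zinc finger repressor of epithelial genes, rose in both sets, from 65.7 to 188 and 172 FPKM (1.54 ± 0.19, adjusted p = 0.00044, and 1.41 ± 0.19, adjusted p = 0.00037). Id2, an inhibitor that ties up E proteins, fell in PDGF-NS (142 to 41.2 FPKM, -1.65 ± 0.41, adjusted p = 0.013, or 0.053 without PDGF-NS library 2), whereas its relative Id4 rose there (1.66 ± 0.36, adjusted p = 0.0061). Id1, of the same family, fell in IGF-NS (53.2 to 20.7 FPKM, -1.40 ± 0.40, adjusted p = 0.029), a call lost without control library 2 (0.087) or 3 (0.087) or IGF-NS library 1 (0.094) or 2 (0.059). Median ratio scaling and quantile normalization gave 2 higher (all genes: 1137 and 1214 of 11376) and 3 lower (all genes: 1229 and 1171) in IGF-NS.

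Of the 4 T-box genes Tbx18 rose in IGF-NS and Tbx2 in PDGF-NS. Tbx18, a marker of mural cells and their progenitors in the epicardium, was at 21.8, 25.6 and 22.2 FPKM in control, at 32.7, 33.5 and 38.0 in IGF-NS and at 19.2, 18.7 and 16.7 in PDGF-NS. The groups did not overlap. Tbx18 rose in IGF-NS (0.57 ± 0.12, adjusted p = 0.0089) and was lower in PDGF-NS than in IGF-NS (-0.90 ± 0.12, adjusted p = 0.00086). Against control, its -0.33 ± 0.12 in PDGF-NS had adjusted p = 0.063 and passed under the 3 other scalings.

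Tbx2, a repressor of cell cycle inhibitors and of chamber genes in the heart, was at 1.83, 3.22 and 2.17 FPKM in control, at 2.99, 1.70 and 2.56 in IGF-NS and at 3.11, 15.2 and 11.9 in PDGF-NS. PDGF-NS library 1 overlapped the controls and the other 2 stood far above them. Its rise in PDGF-NS (1.5 ± 0.43, adjusted p = 0.025) was lost without control library 1 (0.066) or 3 (0.063) or PDGF-NS library 2 (0.093) or 3 (0.096). The difference between the sets (1.49 ± 0.43, adjusted p = 0.043) was lost without control library 2 (0.056) or 3 (0.057), IGF-NS library 1 (0.078), 2 (0.12) or 3 (0.08), or PDGF-NS library 2 (0.14) or 3 (0.16). Without PDGF-NS library 1, the log2 fold change against control was 2.11. Tbx15 (7.07, 8.91 and 6.80 FPKM) and Tbx10 (3.89, 3.53 and 3.30 FPKM) did not pass.

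Of the GATA zinc finger proteins, Gata6 fell sharply in PDGF-NS. It was at 42.4, 53.9 and 57.7 FPKM in control, at 57.5, 60.7 and 68.4 in IGF-NS and at 23.1, 24.6 and 27.7 in PDGF-NS. All PDGF-NS libraries lay at under 28 FPKM and all others above 42, and IGF-NS overlapped the controls. Gata6 fell by 0.99 on the log2 scale in PDGF-NS (SE 0.14, adjusted p = 0.00066), had 0.28 ± 0.14 in IGF-NS (adjusted p = 0.18), and was 2.48-fold lower in PDGF-NS than in IGF-NS (-1.28 ± 0.14, adjusted p = 0.00028).

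Gata4, its partner in heart and smooth muscle, was at 18.2, 18.3 and 20.4 FPKM in control, at 22.4, 22.7 and 35.1 in IGF-NS and at 18.6, 18.1 and 19.8 in PDGF-NS. The IGF-NS libraries lay above the controls, 1 of them well above the others, and PDGF-NS overlapped the controls. Gata4 did not pass (0.45 ± 0.17, adjusted p = 0.08, and -0.01 ± 0.17, adjusted p = 0.98). Gata6 made up 72.8 ± 2.5% of the FPKM of Gata4 and Gata6 in control, 70.3 ± 3.7% in IGF-NS and 57.1 ± 1.5% in PDGF-NS, with PDGF-NS below both others (exact permutation p = 0.1 each).

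Gata2, best known from blood and endothelium, was low, at 0.788, 1.19 and 1.02 FPKM in control, at 2.54, 1.94 and 2.73 in IGF-NS and at 1.02, 1.29 and 1.74 in PDGF-NS. The IGF-NS libraries lay above all others. Gata2 rose in IGF-NS (0.76 ± 0.19, adjusted p = 0.017), a call lost without IGF-NS library 1 (0.06). Of the 10 endothelial markers 4 were at 0 in all libraries, and the list's summed level was lower in IGF-NS (4.14 to 6.55 FPKM) than in control (10.8 to 11.1). Its part in this result was not tested. Gata3 (2.56, 1.76 and 1.80 FPKM) did not pass.

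The GATA cofactor list had 5 of 7 genes tested, with medians of 0.39 in IGF-NS and -0.25 in PDGF-NS (all genes 0.15 and 0.13). In IGF-NS 2 rose (all genes: 17.4%), or 1 under median ratio scaling and quantile normalization (all genes: 1137 and 1214 of 11376). In PDGF-NS 1 rose and 1 fell (all genes: 20.7% and 10.2%), and 2 were lower there than in IGF-NS (all genes: 7.55%). Zfpm2 (FOG2), which binds GATA4 and GATA6, was lower in PDGF-NS than in IGF-NS (61.3 against 35.9 FPKM, -0.76 ± 0.14, adjusted p = 0.0042). Its rise in IGF-NS (0.51, adjusted p = 0.023) was lost without control library 1 (0.054) or 3 (0.059) or IGF-NS library 1 (0.079) or 2 (0.077). Ldb2, an adaptor of LIM-domain complexes, rose in both sets (4.55 to 9.87 and 10.1 FPKM, adjusted p = 0.0073 and 0.004). Lmo4, a LIM-only adaptor, fell in PDGF-NS (33.7 to 22.9 FPKM, -0.53 ± 0.14, adjusted p = 0.018), a call lost without control library 2 (0.064) or 3 (0.056) or PDGF-NS library 2 (0.052) or 3 (0.056).

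Of the 3 SOX genes reported, Sox5 and Sox12 passed. Sox5, a factor of cartilage that lacks a transactivation domain, was at 2.89, 3.23 and 4.19 FPKM in control, at 3.56, 4.96 and 3.61 in IGF-NS and at 7.60, 10.2 and 8.45 in PDGF-NS. The PDGF-NS libraries lay above all others. Sox5 rose in PDGF-NS (1.14 ± 0.18, adjusted p = 0.001) and was higher there than in IGF-NS (0.96 ± 0.18, adjusted p = 0.0051). Sox12 was at 7.05, 10.2 and 9.22 FPKM in control, at 13.7, 13.2 and 13.8 in IGF-NS and at 9.19, 10.7 and 11.3 in PDGF-NS. Its IGF-NS libraries lay above all others, and the rise (0.58 ± 0.15, adjusted p = 0.019) was lost without IGF-NS library 1 (0.061) and under median ratio scaling (0.056) and quantile normalization (0.052). Sox13 (4.26, 3.41 and 2.58 FPKM) did not pass.

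The forkhead family was the largest, with a summed level of 874 ± 94.5 FPKM in control, 806 ± 80.5 in IGF-NS and 625 ± 53.9 in PDGF-NS. Of 17 members 2 rose and 3 fell in IGF-NS (all genes: 17.4% and 7.48%), 1 rose and 5 fell in PDGF-NS (all genes: 20.7% and 10.2%), and 0 were higher and 6 lower in PDGF-NS than in IGF-NS (all genes: 8.33% and 7.55%). The count that fell in PDGF-NS was 10, 9 and 10 under median ratio scaling, the common sum and quantile normalization. Over all genes 1678, 1678 and 1752 of 11376 fell there. Foxs1, a forkhead gene of perivascular cells, was the most abundant of all 53 members in control, at 355, 255 and 285 FPKM, then at 130.1, 118 and 168 in IGF-NS and at 160.0, 211 and 231 in PDGF-NS. Every treated library lay below every control. Foxs1 fell in IGF-NS (2.15-fold, -1.10 ± 0.19, adjusted p = 0.003). Its fall in PDGF-NS (-0.57 ± 0.19, adjusted p = 0.044) was lost without control library 1 (0.12) or 3 (0.079), IGF-NS library 1 (0.062), or PDGF-NS library 1 (0.14), 2 (0.078) or 3 (0.05).

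Foxk1, a forkhead protein that represses autophagy genes and favours glycolysis, was at 91.7, 67.3 and 45.7 FPKM in control, at 139, 129.5 and 166 in IGF-NS and at 51.0, 51.4 and 52.4 in PDGF-NS. The IGF-NS libraries lay above all others. Foxk1 rose in IGF-NS (1.12 ± 0.22, adjusted p = 0.005) and was 2.80-fold lower in PDGF-NS than in IGF-NS (-1.46 ± 0.22, adjusted p = 0.0013). Its paralog Foxk2 (39.0, 35.0 and 32.4 FPKM) did not pass. Foxk1 made up 62.6 ± 7.2% of the pair in control, 80.6 ± 0.90% in IGF-NS and 61.6 ± 3.8% in PDGF-NS.

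Of the FOXP repressors, Foxp1 and Foxp2 fell in PDGF-NS. The sum of the 3 FOXP genes was 227 ± 5.2 FPKM in control, 258 ± 12.6 for IGF-NS and 141 ± 6.1 for PDGF-NS. Foxp1 was at 148.8, 176 and 189.5 FPKM in control, at 204, 188 and 185 in IGF-NS and at 115, 105.4 and 102.1 in PDGF-NS. Foxp2 was at 29.4, 23.8 and 17.9 FPKM in control, at 25.7, 25.5 and 28.7 in IGF-NS and at 14.7, 11.6 and 13.2 in PDGF-NS. For both, the PDGF-NS libraries lay below all others. In PDGF-NS Foxp1 fell (-0.66 ± 0.12, adjusted p = 0.0029) and so did Foxp2 (-0.78 ± 0.17, adjusted p = 0.0071), and both differed between the sets (-0.84, adjusted p = 0.0014, and -0.97, adjusted p = 0.004). Foxp4 (32.4, 38.9 and 20.7 FPKM) passed only between the sets (-0.85 ± 0.23, adjusted p = 0.031), a call lost without IGF-NS library 1 (0.078) or 3 (0.089) or PDGF-NS library 1 (0.1), 2 (0.067) or 3 (0.085).

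Foxa2 and Foxc2 fell, and Foxf1 did not pass. Foxa2, a pioneer factor of endoderm, was at 12.1, 10.0 and 14.2 FPKM in control, at 4.15, 5.79 and 8.28 in IGF-NS and at 6.83, 6.96 and 6.24 in PDGF-NS. Every treated library lay below every control. It fell in IGF-NS (-0.92 ± 0.21, adjusted p = 0.011) and in PDGF-NS (-0.76 ± 0.21, adjusted p = 0.02), the second call being lost without control library 3 (0.069) or PDGF-NS library 1 (0.051) or 3 (0.072). Foxc2, a factor of vessel and lymphatic development, fell in IGF-NS (55.3 ± 6.7 to 32.6 ± 5.9 FPKM, -0.75 ± 0.17, adjusted p = 0.01) and had 39.9 ± 6.3 FPKM in PDGF-NS (adjusted p = 0.059). Foxf1, a factor of visceral and vascular mesenchyme, was at 14.5, 6.36 and 8.14 FPKM in control, at 18.5, 10.9 and 15.4 in IGF-NS and at 4.76, 9.62 and 8.08 in PDGF-NS. Its groups against control overlapped (0.63 ± 0.31, adjusted p = 0.17, and -0.30 ± 0.31, adjusted p = 0.49).

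Of the remaining forkhead members, Foxn2 fell in PDGF-NS (29.7 ± 2.2 to 22.4 ± 3.1 FPKM, -0.40 ± 0.13, adjusted p = 0.038). Its call was lost without control library 1 (0.091) or 2 (0.087), IGF-NS library 1 (0.059), or PDGF-NS library 1 (0.12) or 3 (0.13). Foxc1 (4.34, 3.23 and 2.87 FPKM), Foxj2 (33.8, 30.5 and 25.7), Foxj3 (15.1, 17.3 and 15.6) and Foxn3 (28.9, 26.3 and 23.0) passed in no comparison.

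Among the FOXO genes, the growth-factor-controlled forkheads, Foxo1 rose in IGF-NS and Foxo3 in PDGF-NS. Foxo1 was at 14.7, 14.6 and 14.4 FPKM in control, at 25.3, 19.9 and 20.8 in IGF-NS and at 12.5, 11.5 and 11.5 in PDGF-NS. The groups did not overlap. Foxo1 rose in IGF-NS (0.56 ± 0.12, adjusted p = 0.0097) and was lower in PDGF-NS than in IGF-NS (-0.83 ± 0.12, adjusted p = 0.0014). Against control its -0.28 ± 0.12 in PDGF-NS had adjusted p = 0.11 and passed under the 3 other scalings.

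Foxo3 was at 26.9, 19.5 and 18.3 FPKM in control, at 27.5, 24.0 and 29.6 in IGF-NS and at 27.2, 37.0 and 35.7 in PDGF-NS. PDGF-NS lay above the controls, by little in library 1, and overlapped IGF-NS. Foxo3 did not pass in IGF-NS (0.33 ± 0.18, adjusted p = 0.2, limma) or between the sets (0.28 ± 0.18, adjusted p = 0.33). Its rise in PDGF-NS (0.61 ± 0.18, adjusted p = 0.024) was lost without control library 2 (0.076) or 3 (0.082) or PDGF-NS library 2 (0.089) or 3 (0.089), and under rescaling to one common sum (0.058). Foxo3 made up 59.2 ± 4.8% of the FPKM of Foxo1 and Foxo3 in control, 55.2 ± 3.3% in IGF-NS and 73.4 ± 4.3% in PDGF-NS, above both others (exact permutation p = 0.1 each). Foxo4 was listed at 0 in every library.

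FOXO activity is also set by phosphorylation, which mRNA levels do not show, and the list of FOXO target genes was therefore counted as well. In PDGF-NS 12 of 22 rose and 1 fell (all genes: 20.7% and 10.2%), with a median of 0.74 (all genes 0.13). In IGF-NS 8 rose and 2 fell (all genes: 17.4% and 7.48%), with a median of 0.21 (all genes 0.15). In PDGF-NS 8 were higher and 1 lower than in IGF-NS (all genes: 8.33% and 7.55%). Ccng2, a cyclin that slows the cycle, rose in both sets (10.2 to 27.4 and 39.5 FPKM, 1.36 and 1.87), as did Sesn3, a stress-induced inhibitor of mTORC1 (33.0 to 134 and 116 FPKM, 2.06 and 1.85). Trib1, a pseudokinase that steers protein degradation, fell in IGF-NS (13.7 to 3.85 FPKM, -1.54 ± 0.26, adjusted p = 0.0028), had 21.5 FPKM in PDGF-NS (0.64 ± 0.26, adjusted p = 0.088) and was higher there than in IGF-NS (2.18 ± 0.26, adjusted p = 0.00041). Irs2, the adaptor of insulin and IGF receptors, fell in both sets, from 43.0 FPKM to 7.28 in IGF-NS (-2.38 ± 0.22, adjusted p = 8.4e-05) and 18.7 in PDGF-NS (-1.12 ± 0.22, adjusted p = 0.0036). Many of these genes answer to other factors too. Under the other scalings 11 rose in PDGF-NS (all genes: 1692 to 1768 of 11376) and 7 or 8 in IGF-NS (all genes: 1137 to 1882).

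Genes that act on FOXO proteins (10 of 11 tested) gave 3 rises in each set (all genes: 17.4% and 20.7%) and 0 falls (all genes: 7.48% and 10.2%). Their medians were 0.11 and 0.32 (all genes 0.15 and 0.13). Under the 3 other scalings PDGF-NS gave 2 rises (all genes: 1692 to 1768 of 11376) and 1 fall (all genes: 1678 to 1752). Sgk1, a kinase that like AKT sends FOXO proteins out of the nucleus, rose in IGF-NS from 10.4 to 56.6 FPKM (2.32 ± 0.21, adjusted p = 7.5e-05) and had 14.9 FPKM in PDGF-NS (adjusted p = 0.11). The sets differed in it (-1.85 ± 0.21, adjusted p = 0.00028). Xpo1, the exportin that carries FOXO proteins out of the nucleus, rose in both (21.3 to 35.9 and 34.7 FPKM, adjusted p = 0.011 and 0.013, the second lost without PDGF-NS library 2, 0.053, or 3, 0.058). Ywhaz, a 14-3-3 protein that holds FOXO proteins in the cytoplasm, was at 522, 581 and 683 FPKM and rose in PDGF-NS at adjusted p = 0.049, a call that ended under the 3 other scalings and without any one library except PDGF-NS library 1 (0.054 to 0.16).

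Of the groucho corepressors, which FOX, MSX and SIX-family proteins recruit, 1 of 5 rose in each set (all genes: 17.4% and 20.7%) and 0 fell (all genes: 7.48% and 10.2%). In PDGF-NS 2 fell under each other scaling (all genes: 1678 to 1752 of 11376). The gene that rose in each set was Tle2, from 0.455 to 1.37 and 1.52 FPKM. Tle2 reached the 1 FPKM filter only through its treated libraries. Its call in IGF-NS (adjusted p = 0.025) was lost without control library 3 (0.075) or IGF-NS library 1 (0.077) or 3 (0.067) and under quantile normalization (0.073).

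**Figure D5:**
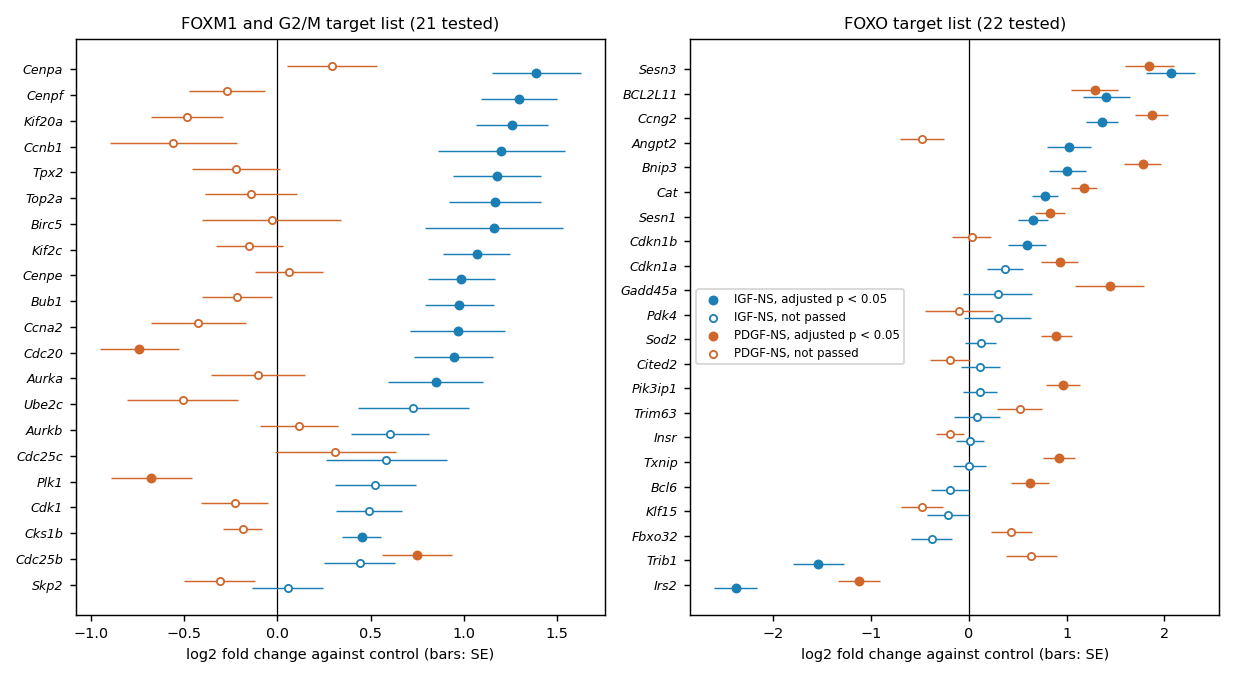
Log2 fold change against control (log2(FPKM + 1) scale, bars for the SE, filled for adjusted p under 0.05) of the tested genes of the FOXM1 and G2/M list (left) and of the FOXO target list (right). On the left 14 of 21 rose in IGF-NS and 1 in PDGF-NS, and on the right 8 of 22 rose in IGF-NS and 12 in PDGF-NS. Over all genes 17.4% rose in IGF-NS and 20.7% in PDGF-NS.

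Foxm1, the forkhead gene of proliferating cells, was at 16.4, 16.5 and 13.8 FPKM in control, at 16.3, 20.6 and 26.9 in IGF-NS and at 8.31, 12.3 and 11.4 in PDGF-NS. The PDGF-NS libraries lay below all others, and IGF-NS overlapped the controls. Foxm1 passed only between the sets, 1.99-fold lower in PDGF-NS (-0.92 ± 0.20, adjusted p = 0.011). Against control it had 0.40 ± 0.20 in IGF-NS (adjusted p = 0.17) and -0.52 ± 0.20 in PDGF-NS (adjusted p = 0.072), the latter passing under the 3 other scalings.

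The FOXM1 and G2/M target list had 21 of 24 genes tested. In IGF-NS 14 rose and 0 fell (all genes: 17.4% and 7.48%), with a median of 0.97 (all genes 0.15). In PDGF-NS 1 rose and 2 fell (all genes: 20.7% and 10.2%), with a median of -0.22 (all genes 0.13). In PDGF-NS 16 were lower than in IGF-NS (all genes: 7.55%), with a median of -1.19 (all genes -0.02). Ccnb1, the cyclin of entry into mitosis, was at 9.09, 21.3 and 5.70 FPKM and was lower in PDGF-NS than in IGF-NS (-1.76 ± 0.34, adjusted p = 0.0064). Its rise in IGF-NS (1.20, adjusted p = 0.029) was lost without control library 1 (0.068) or IGF-NS library 2 (0.097) or 3 (0.051) and under median ratio scaling (0.054). Cenpf, a kinetochore protein, rose in IGF-NS from 2.67 to 8.13 FPKM (1.30 ± 0.21, adjusted p = 0.002). Kif20a, a kinesin of cytokinesis, was at 12.0, 29.8 and 8.26 FPKM and was lower in PDGF-NS than in IGF-NS (-1.74 ± 0.19, adjusted p = 0.00027). Cdc20, the activator of the anaphase-promoting complex, rose in IGF-NS (15.0 to 30.5 FPKM, 0.95, adjusted p = 0.01) and fell in PDGF-NS (8.58 FPKM, -0.74, adjusted p = 0.023). The latter call was lost without control library 3 (0.078) or PDGF-NS library 1 (0.086) or 3 (0.063). Cdc25b, a phosphatase that activates CDK1, was the gene that rose in PDGF-NS (0.75 ± 0.19, adjusted p = 0.014, or 0.054 without PDGF-NS library 3). Under the other scalings 10 to 14 of the list rose in IGF-NS, 4 fell in PDGF-NS and 16 or 17 were lower between the sets. Over all genes these counts were 1137 to 1882, 1678 to 1752 and 809 to 1480 of 11376.

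The counts in PDGF-NS against control depended on how libraries were scaled. The median of all genes was above 0 in both sets. Median ratio scaling moved the median of all genes by -0.14 in IGF-NS and -0.12 in PDGF-NS, and rescaling to one common sum moved it by -0.13 in PDGF-NS and -0.12 between the sets. In PDGF-NS against control the members then gave 7 higher and 18 lower under median ratio scaling, 6 and 17 under the common sum and 6 and 18 under quantile normalization, in place of 8 and 9. Over all genes 1678, 1678 and 1752 of 11376 were lower there, in place of 1166. All 9 members that fell were kept in each, and Foxc2, Foxm1, Foxo1, Foxp4, Meis1, Six5, Sox13 and Tbx18 were added in each. In IGF-NS against control the members gave 11 to 13 higher and 6 or 7 lower. Over all genes 1137 (median ratio), 1882 (common sum) and 1214 (quantile) of 11376 were higher there, in place of 1976. In the same order 1229, 877 and 1171 were lower, in place of 851. Between the sets the 12 lower members were kept in each scaling, with 18 under the common sum (all genes: 1480 of 11376 there, in place of 859). Over all genes the share of calls that were higher went from 69.9% to 48.1% (median ratio), 68.2% (common sum) and 50.9% (quantile) in IGF-NS. In PDGF-NS it went from 66.9% to 51.3%, 50.3% and 49.1%, and between the sets from 52.5% to 56.6%, 33.2% and 50.5%.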

How the data were processed

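RNA from 9 libraries (3 control, 3 IGF-NS, 3 PDGF-NS) was extracted with Trizol, and per the labels' protocols the library kit was Lexogen's SENSE mRNA v2. GSNAP and Cufflinks were used, per the submitters' processing notes, with versions, build and annotation not given in the sources read. The authors deposited FPKM for each gene rather than counts, which bars a count model. Columns were matched to samples by the column name in each record. Of 26407 rows, 4 genes with the value 999999999 in 10 cells (0 members) and 2 duplicate rows were left out, and 5795 rows had no symbol.

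From these values log2(FPKM + 1) was computed for the 11376 genes averaging 1 FPKM or more. One limma fit (version 3.58.1, R 4.3.3, variance trend) held the 3 groups, and p-values were two-sided and Benjamini-Hochberg adjusted within a contrast, with calls at adjusted p under 0.05. The procedure was also run on simulated data with independent noise per gene and no scaling differences between libraries. That run therefore says nothing about how the calls depend on scaling. Reads shared between near-identical genes could be split by the counting. The members and the 8 gene lists and 8 marker lists were chosen with earlier results of these data known. Members at 1 FPKM or more are named, apart from some results that are not reported here. Values in every library are given for up to 5 called members of a family with the largest changes and for a set chosen by role. Of each list up to 4 called genes with the largest change are named. Cdc25b was named after its values were seen, as the 1 gene of its list that rose in PDGF-NS. The 19 alternatives covered pseudocounts, filters, scalings, variance trend, a replicate block, fitting only the groups compared and leaving out each library.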

Additional observations from a re-analysis of the deposited data

Results flagged for a closer look

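Foxo6 and Sox8, members under the limit of 1 FPKM and so outside the comparisons above, had a signal in IGF-NS above the level in the control libraries. Foxo6, a FOXO gene best known from brain, had a mean of 1.05 FPKM in IGF-NS against 0.269 in control and 0.113 in PDGF-NS. Its IGF-NS libraries were at 1.09, 0.794 and 1.26 FPKM and its controls at 0.210, 0.327 and 0.270. In the limma fit without a filter Foxo6 had a log2 fold change of 0.69 in IGF-NS (Benjamini-Hochberg adjusted p = 0.0026) and -0.88 between the sets (adjusted p = 0.00079). Sox8, a SOXE gene of neural crest and testis, had a mean of 0.766 FPKM in IGF-NS against 0.0597 in control and 0.108 in PDGF-NS. Its IGF-NS libraries were at 1.05, 0.385 and 0.862 FPKM, and 1 control was listed at 0. In that fit Sox8 had 0.72 in IGF-NS (adjusted p = 0.0088) and -0.66 between the sets (adjusted p = 0.016). Of the Schwann and glial markers, Cdh19 was at 0 in all libraries and S100b had means of 0.193, 0.995 and 1.17 FPKM in control, IGF-NS and PDGF-NS. Their part in the signal of Sox8 was not tested.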

How the results depend on the processing

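Of the 51 calls of members over the 3 comparisons, 35 were kept in all 19 alternatives (14 of 19 in IGF-NS against control, 10 of 17 in PDGF-NS against control, 11 of 15 between the sets). No call turned its direction, and of the 108 results that were not called 31 changed sign in at least 1 alternative. Leaving out 1 library at a time gave 10 to 15 members higher and 4 to 6 lower in IGF-NS against control, 5 to 8 higher and 6 to 13 lower in PDGF-NS against control, and 1 to 3 higher and 10 to 13 lower between the sets. Over all genes 1757 to 2935, 2374 to 3739 and 1014 to 2143 of 11376 were called in these comparisons, in either direction. Lower members in PDGF-NS against control numbered 18 under median ratio scaling, 17 after rescaling to one common sum and 18 after quantile normalization, in place of 9. These scalings lower the median of all genes there, and over all genes 1678, 1678 and 1752 of 11376 were then lower, in place of 1166. Higher members between the sets numbered 1 without a filter and 1 with only the 2 groups compared, in place of 3, and the cause was not tested. Over all genes 1821 of 16202 and 1827 of 11376 were called there in either direction, in place of 1807 of 11376. The pseudocounts of 0.1 and 0.5 kept all 51 calls.

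Replicate numbers are given in the labels, but same-numbered libraries did not deviate together: the correlation of their deviations was -0.28 to 0.25 over 9 pairs (median -0.07), with 2 pairs over 0.1. A fit with the replicate block gave 13 members higher and 5 lower in IGF-NS against control, 7 and 8 in PDGF-NS against control, and 2 and 10 between the sets. Over all genes that fit called 2457, 3221 and 1530 of 11376 in either direction, in place of 2827, 3521 and 1807. Read numbers are not known, so how depth limits the low members could not be given, and 3 libraries per group limit small changes.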

Other observations

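Other members under 1 FPKM were read from the limma fit without a filter (Benjamini-Hochberg adjusted). That fit called 2680 of 16202 genes in IGF-NS against control and 3546 in PDGF-NS against control. Sox11, Six2, Tbx19, Msx2 and Foxn1 are named because they were called, and most members under 1 FPKM were not. Sox11, a SOXC gene of progenitor cells, was at 1.13, 1.04 and 1.28 FPKM in control, at 0.245, 0.539 and 0.799 in IGF-NS and at 0.547, 0.398 and 0.517 in PDGF-NS. Every treated library lay below every control, and Sox11 was called lower in both sets (adjusted p = 0.034 and 0.022). Six2, a homeodomain gene of kidney and mesenchyme progenitors, had means of 1.1, 0.395 and 0.386 FPKM and was called lower in both (adjusted p = 0.031 and 0.022), whereas its relative Six4 rose in both. Tbx19 had 0.951 and 1.02 FPKM in control and IGF-NS and 0.252 in PDGF-NS, where it was called lower (adjusted p = 0.0038). Msx2 had 0.259, 0.0824 and 0.0229 FPKM and was called lower in PDGF-NS (adjusted p = 0.015). Foxn1, at a mean of 0.286 FPKM in control and 0.0736 in IGF-NS, was called lower in IGF-NS (adjusted p = 0.017). Gata5, Foxd1 and Tbx20 were listed at 0 in every library. Six6os1, also at 0, matched the naming rule but is no SIX-family homeodomain gene.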
